A study of Mus musculus with 4 samples.

Results

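The genes described here are 10 feedback regulators of receptor tyrosine kinase and MAP kinase signalling: the Sprouty genes Spry1, Spry2 and Spry4, the Spred genes Spred1, Spred2 and Spred3, and the dual-specificity phosphatase genes Dusp1, Dusp4, Dusp5 and Dusp6. They were chosen by name, with earlier results of these data known. All 10 were found among the 22180 genes with a value on the array. RNA came from primary keratinocytes, the epithelial cells of the epidermis, grown from 1-week-old C57BL/6J mice. Glut1-deficient cells carried floxed Glut1 (Slc2a1, a glucose transporter) together with a Cre transgene driven by the keratin 14 promoter, a basal epidermal promoter, and WT cells carried the same floxed alleles without Cre. Each genotype had 4 mice. Cultures of both genotypes grew in the same medium with 5 ng/ml EGF, 0.05 ug/ml hydrocortisone, 0.5 ug/ml insulin and 0.05 mM calcium chloride. Cells were replated at equal number after 3 days and collected 1 day later, and each array received the combined RNA of 2 plates, giving 2 arrays per genotype. RNA was taken from 1000000 Glut1-deficient and 1500000 WT cells per sample. Values are log2 intensities from the MoGene 2.0 array, made by the authors with RMA, which sets all arrays to a common distribution. A difference is therefore relative to the other genes, and levels of different genes cannot be ranked against each other.

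Receptor tyrosine kinases such as the EGF receptor switch on Ras, Raf, MEK and ERK in turn, and ERK then induces genes whose products restrain the same cascade. Sprouty proteins act between the receptor and Raf, partly by binding the adaptor Grb2 and the ubiquitin ligase Cbl. Spred proteins hold neurofibromin, a Ras inactivator, at the membrane and limit Raf activation. The phosphatases remove phosphate from MAP kinases: Dusp6 acts on ERK in the cytoplasm, Dusp5 on ERK in the nucleus, and the nuclear enzymes Dusp1 and Dusp4 on ERK, p38 and JNK. Because ERK induces many of them, transcripts of these genes are commonly read as a trace of recent pathway activity.

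Of the 10 genes, Spry2, Spry4 and Dusp5 rose in Glut1-deficient keratinocytes, 0 fell and 7 did not pass the test (limma, Benjamini-Hochberg adjusted p under 0.05 over all genes). Of all genes tested, 2.84% were called, 1.79% as rises and 1.05% as falls. The median log2 fold change of the 10 genes, Glut1-deficient minus WT, was 0.45, against -0.007 over all genes. Both Glut1-deficient arrays lay above both WT arrays for 8 of the 10 genes, a pattern shown by 25.5% of all genes. Both lay below for Dusp6 (27.7% of all genes), and the genotypes overlapped for Spred1. Arrays of the genotypes were apart in either direction for 53.2% of all genes. At an unadjusted p under 0.05 in limma, 8 of the 10 genes differed, compared with 22.2% of all genes. As the 10 genes were chosen with earlier results known, these counts are descriptive only.

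**Figure D1:**
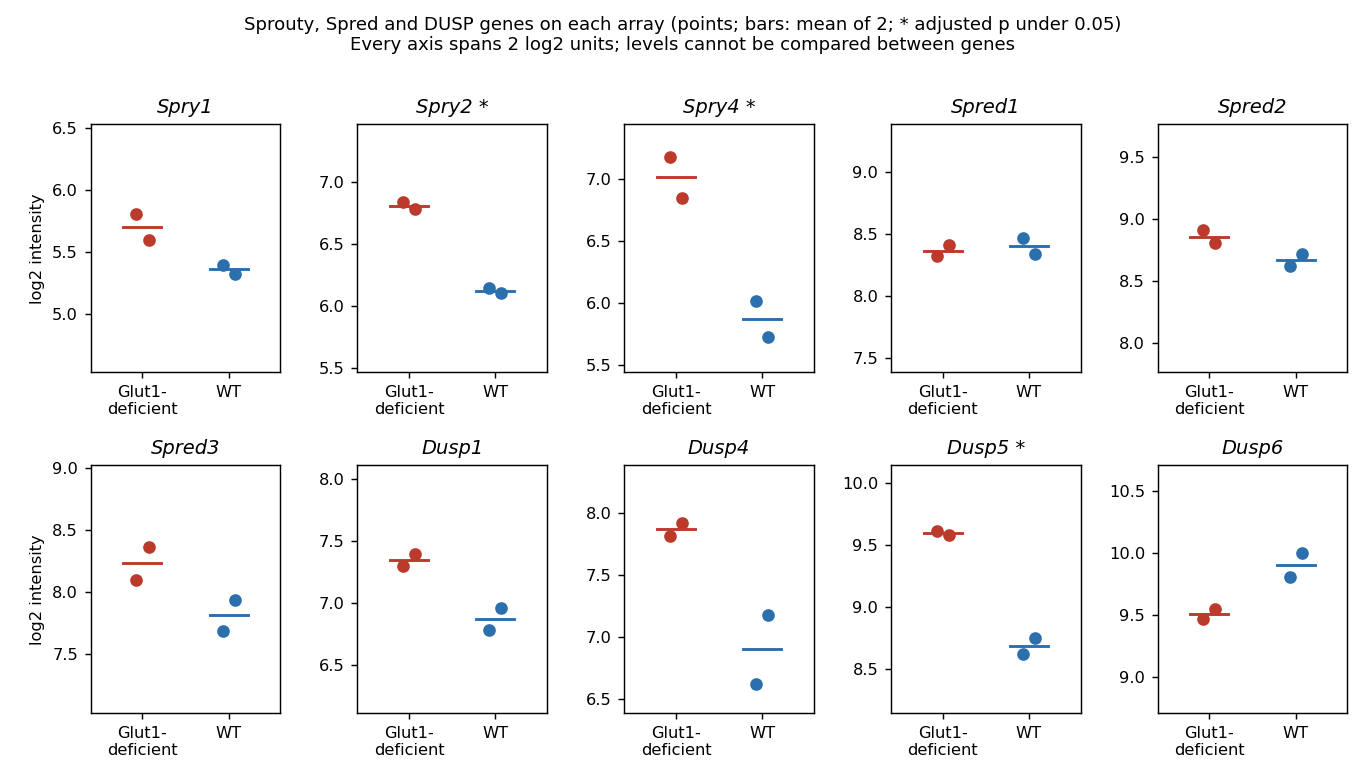
Log2 intensity (vertical axis) of each of the 10 genes on the 2 Glut1-deficient arrays (red, left) and the 2 WT arrays (blue, right), with bars at the means and an asterisk for genes past the test. Red points sit above blue for 8 genes, the colours overlap for Spred1, and the order is turned round for Dusp6.

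Spry4 had the largest difference of the 10 genes. Its log2 intensity was 7.18 and 6.85 on the Glut1-deficient arrays, against 6.02 and 5.73 on the WT arrays. The genotypes were apart by 0.83 at their closest arrays, more than the spread within either (SD 0.233 in Glut1-deficient and 0.203 in WT cells, n = 2 each). Spry4 transcript was thus 2.21-fold higher in Glut1-deficient cells, or 1.14 log2 units (95% interval 0.73 to 1.56; limma adjusted p = 0.042). Only 0.807% of all genes had a larger rise.

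Spry2, the Sprouty best known for binding Cbl, read 6.83 and 6.78 on the Glut1-deficient arrays and 6.14 and 6.10 on the WT arrays. Replicates were close together here (SD 0.0378 in Glut1-deficient and 0.0279 in WT cells, n = 2 each). The rise was 1.61-fold, or 0.68 log2 units (95% interval 0.46 to 0.90; limma adjusted p = 0.034).

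Spry1 read 5.80 and 5.60 on the Glut1-deficient arrays, against 5.39 and 5.32 on the WT arrays. It thus had the same order of genotypes as the other two Sprouty genes, but with a log2 fold change of 0.34 (95% interval 0.07 to 0.62) it did not pass (limma adjusted p = 0.161). The log2 intensity of Spry4 minus that of Spry1 was 1.38 and 1.25 on the Glut1-deficient arrays and 0.62 and 0.40 on the WT arrays. This difference was higher on both Glut1-deficient arrays. The shift of 0.80 restates the fold changes of both genes and was not tested.

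None of the 3 Spred genes passed (limma, with 1 at an unadjusted p under 0.05). Spred3 read 8.09 and 8.36 on the Glut1-deficient arrays, against 7.68 and 7.93 on the WT arrays, with a log2 fold change of 0.42 (95% interval 0.05 to 0.79; limma adjusted p = 0.184). Spred2 read 8.91 and 8.81 in Glut1-deficient cells and 8.63 and 8.72 in WT cells, with a log2 fold change of 0.19 (95% interval -0.05 to 0.43). Both had Glut1-deficient arrays above WT arrays, and neither passed. Spred1, the gene mutated in Legius syndrome in humans, read 8.32 and 8.41 in Glut1-deficient cells and 8.47 and 8.34 in WT cells. Its genotypes overlapped, and its log2 fold change of -0.04 had a 95% interval of -0.29 to 0.21.

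Among the phosphatases, Dusp5 had the smallest p of the 10 genes. It read 9.62 and 9.58 on the Glut1-deficient arrays, against 8.62 and 8.76 on the WT arrays, a gap of 0.83 between the closest arrays. The rise of this nuclear ERK phosphatase was 1.88-fold, or 0.91 log2 units (95% interval 0.67 to 1.15; limma adjusted p = 0.0249). Only 1.40% of all genes had a larger rise.

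Dusp4 had nearly the same difference as Dusp5 but did not pass. It read 7.81 and 7.92 on the Glut1-deficient arrays, against 6.62 and 7.18 on the WT arrays, so the WT pair spread widely (SD 0.393, n = 2) while the Glut1-deficient pair did not (SD 0.0738, n = 2). The fitted difference was 0.97 log2 units (95% interval 0.46 to 1.48; limma adjusted p = 0.0785). Dusp1, an immediate early gene that glucocorticoids also induce, read 7.30 and 7.40 in Glut1-deficient cells and 6.79 and 6.97 in WT cells. Its log2 fold change of 0.47 (95% interval 0.20 to 0.74) did not pass (limma adjusted p = 0.0906).

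Dusp6, the cytoplasmic ERK phosphatase often used as a readout of ERK activity, had the opposite sign. It read 9.47 and 9.55 on the Glut1-deficient arrays, against 9.81 and 10.00 on the WT arrays. Its log2 fold change of -0.39 (95% interval -0.67 to -0.12) missed the threshold (limma adjusted p = 0.124). A second, much dimmer Dusp6 row read 3.48 and 3.68 in Glut1-deficient cells and 3.74 and 3.32 in WT cells, so its genotypes overlapped. The log2 intensity of Dusp5 minus that of Dusp6 was 0.15 and 0.03 on the Glut1-deficient arrays and -1.19 and -1.24 on the WT arrays. This difference was higher on both Glut1-deficient arrays, by 1.31 on the log2 scale. That shift restates the fold changes of both genes and was not tested. Its sign on an array does not show which transcript was more abundant.

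**Figure D2:**
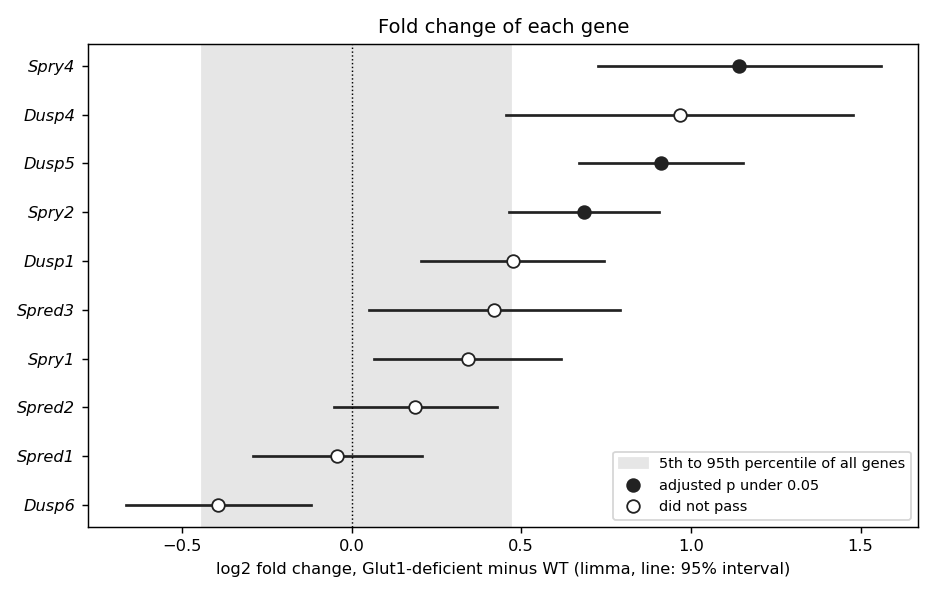
Log2 fold change of each gene, Glut1-deficient minus WT (horizontal axis), with the 95% interval from limma as a line; filled points passed and open points did not. The grey band spans the 5th to the 95th percentile of all genes, -0.44 to 0.47. Spry4, Dusp4, Dusp5 and Spry2 lie wholly or nearly beyond its right edge, and Dusp6 is the lowest.

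With 2 arrays per genotype these calls rested on the variance model. With an intensity trend in the prior variance, 6 of the 10 genes passed, with Dusp4 (limma adjusted p = 0.0127) and Dusp1 (limma adjusted p = 0.0216) added to the rises and Dusp6 as a fall (limma adjusted p = 0.0172), while 12.0% of all genes were then called, 6.06% as rises and 5.98% as falls. As many passed with robust estimation added (12.3% of all genes called) and among genes above the median brightness (21.0% called), and 5 passed at an adjusted p under 0.1 (8.36% called). With any 1 array left out, none of the 10 passed in limma, nor did any other gene, and 6 or 7 of the 10 had an unadjusted p under 0.05. The log2 fold change then ran from 0.98 to 1.31 for Spry4, from 0.66 to 0.71 for Spry2, from 0.84 to 0.98 for Dusp5 and from 0.69 to 1.24 for Dusp4. That of Dusp6 ran from -0.49 to -0.30.

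**Figure D3:**
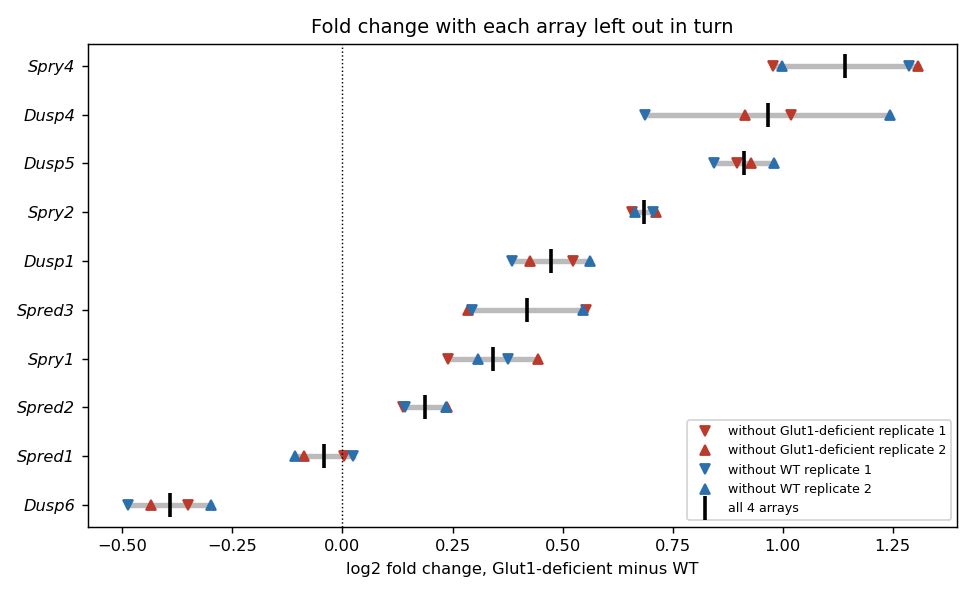
Log2 fold change, Glut1-deficient minus WT (horizontal axis), of each gene with all 4 arrays (black tick) and with 1 Glut1-deficient array (red) or 1 WT array (blue) left out. Spry2 and Dusp5 move least among the genes that rose, Dusp4 has the widest range, and only Spred1 crosses 0.

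The sequences just upstream of the start site are shown for the phosphatase and Sprouty genes that rose and have an entry, and for Dusp1 and Dusp6 as phosphatase genes that did not pass. They are RefSeq sequences on build GRCm38.p6, each with 250 bases ending at the base before the annotated start. The set held 8 of the 10 genes, with no entry for Spry4 or Dusp4. Motifs were searched on both strands: the cyclic AMP response element (TGACGTCA), its core (TGACG), which lies within the full element, the CArG box bound by serum response factor, an ETS core (CCGGAA), the AP-1 site (TGANTCA) and the C/EBP-ATF element (TGATGNAAT). Capitals mark every match, read on either strand.
Dusp5, chr19:53528895-53529144, plus strand: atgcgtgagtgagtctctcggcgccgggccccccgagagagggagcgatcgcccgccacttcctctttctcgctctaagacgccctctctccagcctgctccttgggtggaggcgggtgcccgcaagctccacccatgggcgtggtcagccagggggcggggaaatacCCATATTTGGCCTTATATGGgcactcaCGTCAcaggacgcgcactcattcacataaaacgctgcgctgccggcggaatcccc
Spry2, chr14:105896820-105897069, minus strand: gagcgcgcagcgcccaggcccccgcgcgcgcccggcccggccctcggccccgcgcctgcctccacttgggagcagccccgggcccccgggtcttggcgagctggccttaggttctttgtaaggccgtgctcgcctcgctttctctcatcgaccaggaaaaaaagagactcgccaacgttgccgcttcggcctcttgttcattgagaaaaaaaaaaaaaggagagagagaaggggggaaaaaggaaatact
Dusp1, chr17:26508473-26508722, minus strand: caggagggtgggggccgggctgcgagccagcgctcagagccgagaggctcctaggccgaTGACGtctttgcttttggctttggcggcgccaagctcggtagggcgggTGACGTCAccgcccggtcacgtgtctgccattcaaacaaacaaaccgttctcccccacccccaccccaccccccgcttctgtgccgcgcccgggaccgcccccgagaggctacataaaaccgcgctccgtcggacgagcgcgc
Dusp6, chr10:99262981-99263230, plus strand: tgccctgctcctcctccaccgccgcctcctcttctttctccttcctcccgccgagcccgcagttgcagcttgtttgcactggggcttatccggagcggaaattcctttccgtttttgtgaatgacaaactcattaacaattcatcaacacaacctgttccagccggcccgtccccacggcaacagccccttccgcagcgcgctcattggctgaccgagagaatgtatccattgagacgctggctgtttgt
The Dusp5 window held 2 CArG boxes directly next to each other and 1 core of the cyclic AMP response element. Of all 32851 windows of this length, 1.47% held a CArG box, and none of the other 7 windows of these genes did. The Dusp1 window held 1 full cyclic AMP response element (1.55% of all windows) and 3 matches to the core (17.8%), 2 of them inside the full element. Spred2 had 1 core. No window of the 8 matched the ETS core (12.0% of all windows), the AP-1 site (6.75%) or the C/EBP-ATF element (0.816%), and the Spry2 and Dusp6 windows held none of the 6 motifs. A match or its absence describes these letters only.

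Most of the remaining members of the same families, 6 of 7, also had a positive log2 fold change. Of these 7 Sprouty and typical MAP kinase phosphatase genes (Spry3, Dusp2, Dusp7, Dusp8, Dusp9, Dusp10 and Dusp16), 1 rose, 0 fell and 6 did not pass, with a median log2 fold change of 0.31. Dusp9, an ERK-selective phosphatase, rose 1.62-fold, at 8.70 and 8.56 on the Glut1-deficient arrays and 7.85 and 8.01 on the WT arrays (limma adjusted p = 0.0489, and 0.0511 after repeated quantile normalization). Dusp8, which acts on JNK and p38, read 6.41 and 6.74 in Glut1-deficient cells and 5.82 and 5.65 in WT cells, a difference of 0.84 log2 units that missed the threshold (limma adjusted p = 0.0576). The 14 atypical dual-specificity phosphatases, many of which do not act on MAP kinases, had 0 rises and 0 falls in limma, with 2 at an unadjusted p under 0.05, and a median of 0.01. Dusp3 had the smallest p among them, with a log2 fold change of 0.57, followed by Dusp23 at 0.41.

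Upstream of these regulators, 2 of 13 EGF family ligands and receptors rose, 0 fell and 11 did not pass, with a median log2 fold change of 0.16. In limma, 6 of the 13 had an unadjusted p under 0.05. Both that rose encode ligands of the EGF receptor. Epgn, epigen, rose 3.71-fold and read 8.59 and 8.28 in Glut1-deficient cells against 6.50 and 6.59 in WT cells (limma adjusted p = 0.0145). Ereg, epiregulin, rose 2.43-fold and read 8.59 and 8.31 in Glut1-deficient cells, against 7.12 and 7.21 in WT cells (limma adjusted p = 0.0223). The mean of its rows gave a smaller log2 fold change of 0.79 (limma adjusted p = 0.0375), against 1.28 for the brighter row. Egfr itself had a log2 fold change of 0.04. Of the other receptors, named after their values were seen, Erbb2 was at -0.26, Erbb3 at 0.41 and Erbb4 at 0.19. None of these receptors passed. Of 11 FGF ligands, receptors and the FGF carrier Fgfbp1, 0 rose, Fgfbp1 fell by 0.80 on the log2 scale (limma adjusted p = 0.0393) and 10 did not pass, with a median of 0.17. An unadjusted p under 0.05 in limma was found for 6 of these 11. Fgfr1 had a log2 fold change of 0.62 and did not pass. The widest difference of that list, named after its values were seen, was that of Fgf7, a growth factor made by dermal fibroblasts, at 6.32 and 5.35 in Glut1-deficient cells and 4.19 and 3.72 in WT cells. It did not pass either (log2 fold change 1.88; limma adjusted p = 0.068), and the median fibroblast marker differed by 1.16. Among genes above the median brightness, the medians were 0.40 for the EGF family list and 0.43 for the FGF list.

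Transcripts of the cascade itself were not shown to differ. None of 12 Ras and ERK cascade genes passed (limma, with 2 at an unadjusted p under 0.05), and their median log2 fold change was -0.01. The Ras activator Sos2 had a log2 fold change of 0.53 and the kinase Braf of 0.35. None of 18 other brakes on receptors and Ras passed (limma, with 7 at an unadjusted p under 0.05), with a median of 0.02. Errfi1, an ERK-induced inhibitor of the EGF receptor, had a log2 fold change of 0.48, and Lrig1, which promotes receptor degradation, of -0.57. None of 12 p38 and JNK pathway kinases passed (limma, with 2 at an unadjusted p under 0.05), with Mapk11 at -0.40 and Mapk12 at 0.53 having the smallest p and a median of 0.03.

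Other genes that ERK induces had mixed signs. Of 23 tested, 1 rose, 0 fell and 22 did not pass (limma, with 11 of the 23 at an unadjusted p under 0.05). There were 15 positive and 8 negative log2 fold changes, with a median of 0.09. Plaur, the urokinase receptor, rose 1.86-fold, at 9.96 and 10.02 on the Glut1-deficient arrays and 9.02 and 9.17 on the WT arrays (limma adjusted p = 0.028). Etv5, an ETS factor that like Sprouty genes follows FGF and ERK signalling, had a log2 fold change of 0.51 and did not pass. Among 7 genes of the glucocorticoid response, a hormone signal that also induces Dusp1, Klf9 rose 2.55-fold (limma adjusted p = 0.0281), the kinase gene Sgk1 fell by 0.69 on the log2 scale (limma adjusted p = 0.0419) and 5 did not pass. Their median was 0.21, or 0.08 without WT array 1.

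**Figure D4:**
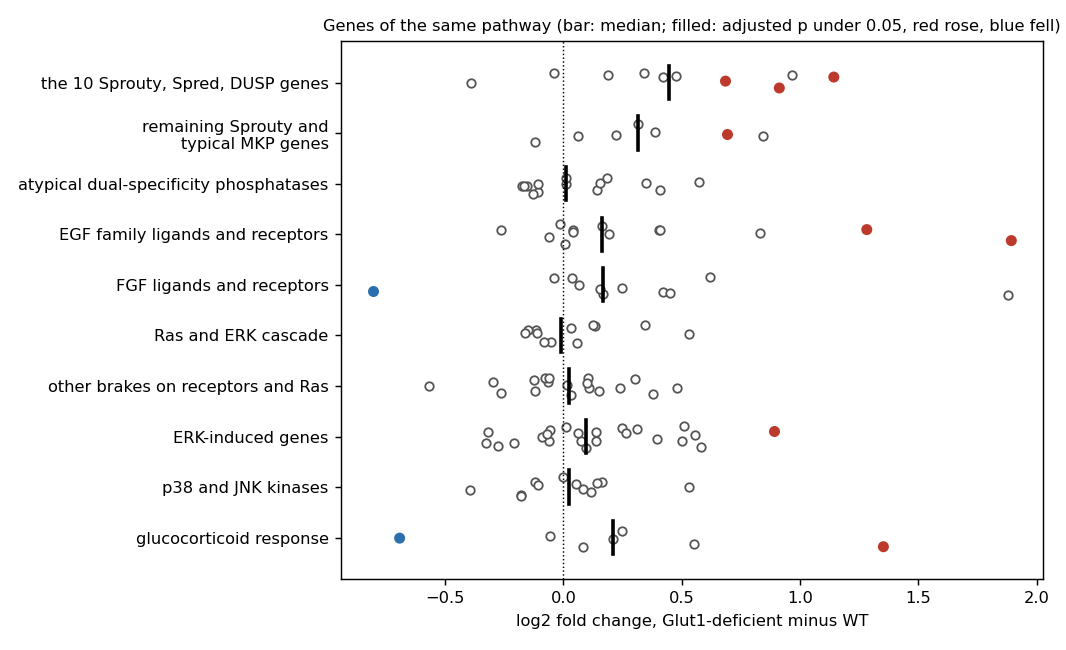
Log2 fold change, Glut1-deficient minus WT (horizontal axis), of the 10 genes (top) and of 9 lists of pathway genes, 1 point per gene, with the list median as a bar; filled points passed, red for rises and blue for falls. The 10 genes have the highest median of the lists, 0.45, and the Ras and ERK cascade the lowest, -0.01.

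The genes whose pattern over the 4 arrays was closest to a gene that rose were found by the Euclidean distance between array values centred on each gene's mean. Nearest to Dusp5 were the amino acid transporter gene Slc7a5 (distance 0.0409), Herpud1 of endoplasmic reticulum protein degradation (0.0444) and the tRNA-modifying enzyme gene Dus4l (0.0546). Nearest to Spry2 were Cst6, a cystatin of the epidermis (0.0158), the lysosomal enzyme gene Idua (0.0268) and Blvrb (0.0397). Nearest to Spry4 were Usp11 (0.0552), Fcgrt (0.0555) and Lgals7 (0.0773). With 2 arrays per genotype, such likeness mostly reflects a similar difference between genotypes.

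The arrays also differed in other ways. The brighter Slc2a1 row read 11.01 on both Glut1-deficient arrays and 11.13 and 11.05 on the WT arrays, and a dimmer row read 4.80 and 4.44 on the Glut1-deficient arrays, against 5.18 and 5.09 on the WT arrays. Whether either row has probes in the deleted exons is not given in the labels, so neither row checks them. Of 9 keratinocyte markers, 8 were brighter than the median gene and Krt15, named after its values were seen, was dim, at 3.27 and 2.81 in Glut1-deficient cells and 2.67 and 3.18 in WT cells. Their summed linear intensities were 20464 to 21241 in Glut1-deficient cells and 21923 to 22267 in WT cells, their median log2 fold change was -0.12, and 0 passed in limma (6 at an unadjusted p under 0.05). Fibroblast markers had positive log2 fold changes in 10 of 10 cases, with 1 past the test (Twist2) and a median of 1.16. In limma, 9 of the 10 had an unadjusted p under 0.05, compared with 22.2% of all genes. Fibroblast marker sums were 684 to 1259 in Glut1-deficient cells and 301 to 327 in WT cells. Melanocyte markers had 5 of 9 risen, a median of 0.85, and sums of 997 to 1069 in Glut1-deficient cells and 392 to 487 in WT cells. On the array, 3 of 10 fibroblast and 3 of 9 melanocyte markers were dimmer than the median gene, and no marker can read 0. Of 8 endothelial markers Kdr rose, 6 were dimmer than the median gene and the median log2 fold change was 0.04. Their sums were 292 to 314 in Glut1-deficient cells and 146 to 151 in WT cells. That difference in sums lay in Kdr, at 7.72 and 7.59 in Glut1-deficient cells and 5.08 and 5.48 in WT cells. Of 8 immune markers 0 passed in limma (2 at an unadjusted p under 0.05) and 7 were dim, with a median of -0.05 and sums of 384 to 387 in Glut1-deficient cells and 385 to 389 in WT cells. Of 6 smooth muscle and pericyte markers Acta2 fell, 0 rose and 5 had a negative log2 fold change, with a median of -0.28. Sums of these markers were 528 to 548 in Glut1-deficient cells and 797 to 844 in WT cells. Most of that difference in sums lay in Acta2, at 8.59 and 8.73 in Glut1-deficient cells and 9.40 and 9.35 in WT cells.

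Relative to the WT mean, the median fibroblast marker was higher by 1.55 on Glut1-deficient array 1 and by 0.87 on array 2. Spry4 was higher by 1.31 on array 1 and by 0.98 on array 2, and Spry1 by 0.44 and 0.24. Spry2 was higher by 0.71 and 0.66 and Dusp5 by 0.93 and 0.90, which is nearly equal on both arrays. Dusp4 (0.91 and 1.02), Dusp1 (0.43 and 0.52) and Spred3 (0.29 and 0.55) were higher on array 2, as was the median melanocyte marker (0.74 and 0.95). The part of these other cells in the differences was not tested. In such pooled RNA, a change in the number of cells of a type and a change in RNA per cell cannot be told apart.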

How the data were processed

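RNA of cultured keratinocytes was hybridised to 4 MoGene 2.0 arrays, 2 per genotype. The deposited log2 values, 1 per transcript cluster, come from RMA run by the authors, with Affymetrix Expression Console also listed, per the submitters' processing notes. For both, the version is not given in the sources used here, nor is a genome build. Of 41345 rows, 23521 carry exactly 1 gene symbol in the platform annotation, and the row with the highest mean stood for a gene, leaving 22180 genes. Of the 10 genes described, 1 (Dusp6) had a second row. Genotypes were compared in R 4.3.3 with limma 3.58.1 (lmFit, then eBayes with a constant prior variance), with 2 residual and 2.95 prior degrees of freedom per gene, two-sided, and p-values were adjusted over all genes by Benjamini-Hochberg with a threshold of 0.05. The fit was tested on simulated data. An exact permutation of 2 against 2 arrays cannot give a two-sided p below 0.333. The number of arrays limits the precision. The labels call the arrays biological replicates but do not say whether pools share mice or culture days, and the p-values reflect only how far these pools differ. The members and lists were chosen with earlier results of these data known. Named in the text are all 10 genes, up to 4 called genes per list with the smallest p (or the 2 with the smallest p where fewer passed), and the 3 nearest genes by array pattern. The receptor genes Egfr, Erbb2, Erbb3 and Erbb4 were named outside this rule. For marker lists the counts, median and sums are given. Alternatives were intensity trends, 2 further normalizations, a filter on dim genes, other treatments of rows, a block for the replicate number, a threshold of 0.1 and fits without 1 of the arrays. Figures were drawn with matplotlib 3.10.9.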

Additional observations from a re-analysis of the deposited data

How the results depend on the processing

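Of the 10 genes, 3 passed in the fit described, and 3 also after median centring, after repeated quantile normalization and with the mean of a gene's rows. The count was 6 with an intensity trend, with and without robust estimation, and among genes above the median brightness, and 5 at an adjusted p under 0.1. It was 0 with all rows as separate tests and 0 with any 1 array left out (limma, with 7 of the 10 and 6 to 7 of the 10 at an unadjusted p under 0.05). Over all genes, where 630 passed, the count was 2671 with an intensity trend, 2729 with robust estimation added, 2327 among bright genes and 1855 at 0.1. It was 0 with all rows tested (limma, 6694 rows at an unadjusted p under 0.05) and 0 with an array left out (limma, 2948 to 4627 genes at an unadjusted p under 0.05). The cause of the first was not tested. In the second, fewer samples remain, and the lone array of a genotype is assumed to vary like the other pair. With the replicate number as a block, 37 genes and 0 of the 10 passed (limma; 8 of the 10 had an unadjusted p under 0.05). Adjusted p was then 0.0537 for Spry4, 0.072 for Dusp5 and 0.0898 for Spry2. Deviations of same-numbered arrays had r = -0.03 over genes, and nothing in the labels pairs them. The log2 fold change of Spred1 changed sign in 2 fits (range -0.107 to 0.0229). It was 0.0029 without Glut1-deficient array 1 and 0.0229 without WT array 1. The other 9 genes kept their sign under all 13 alternatives, but most of these could not change it. The variance settings, dim-gene filter, block, threshold and separate rows leave a fold change as it is. Leaving out 1 array cannot reverse the sign where the genotypes do not overlap, as in these genes. Averaging both Dusp6 rows gave -0.17. Without WT array 2 the FGF list had a median of 0.29, and the smooth muscle list had -0.53 without that array and -0.09 without WT array 1. The Ras and ERK cascade median was 0.05 without Glut1-deficient array 1, and that of the other brakes -0.005 without array 2 of that genotype. Among bright genes the endothelial median was 1.02, where only Kdr (log2 fold change 2.38) and Pecam1 (-0.35) remained. The smooth muscle median was -0.48. No detection calls were used, so dim genes have no stated limit of detection.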
